A study of Mus musculus with 8 samples.

Results

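miR-31 is a microRNA gene, and the small RNA table lists the mature products of both strands of its hairpin, miR-31-5p and miR-31-3p. The arms were taken as every microRNA feature whose name begins with mmu-miR-31-, here mmu-miR-31-5p and mmu-miR-31-3p, which gave 2 of 813 microRNA features and of 2403 small RNA features in all. Both passed the filter for testing, with 1540 features tested in total. The libraries were made from immortalized skin fibroblasts of mice on the C57BL/6 background, either of the genotype mir210lox/lox (samples titled KO) or wild type (WT). Cells were kept for 24 h at 1% O2 (hypoxia) or 21% O2 (normoxia), with 2 libraries, numbered 1 and 2, in each of the 4 groups: KO hypoxia, KO normoxia, WT hypoxia and WT normoxia. The genotype label names a floxed Mir210 allele and does not state how or whether it was recombined, and the labels give neither the number of lines per genotype nor the cultures behind each library. P-values therefore measure only the spread between these libraries, which may be technical.

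A microRNA hairpin is cut by Dicer into a short duplex, and the strand loaded into an Argonaute protein guides it to messenger RNAs that pair with the seed, bases 2 to 8 of the strand. miR-31-5p is the usual guide strand and miR-31-3p the strand that is mostly discarded. In mouse and human skin miR-31 is best known in keratinocytes and hair follicles, and in human cancer cells it is known for restraining or promoting invasion depending on the tissue. In human carcinoma cells it was described as acting on the messenger RNA of FIH, the asparaginyl hydroxylase that keeps hypoxia-inducible factor (HIF) from recruiting its coactivators, which links it to the oxygen response studied here.

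The 3 sequences below show what was counted: the hairpin from RefSeq (build GRCm38.p6, chr4:88910557-88910662, minus strand) with both arms in capitals, and each mature arm with its seed in capitals.
Mir31 hairpin: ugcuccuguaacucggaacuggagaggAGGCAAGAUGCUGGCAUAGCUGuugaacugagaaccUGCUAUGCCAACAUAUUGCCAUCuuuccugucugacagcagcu
miR-31-5p: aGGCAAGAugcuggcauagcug
miR-31-3p: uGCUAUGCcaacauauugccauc

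The arms occupy bases 28 to 49 and 64 to 86 of the hairpin, with a loop of 14 bases between them. None of the other mature microRNAs among the 1679 names in the RefSeq table has the seed of miR-31-5p, GGCAAGA, or that of miR-31-3p, GCUAUGC, so neither arm belongs to a larger seed family there. The deposited table gives each arm with 1 more base at either end than the RefSeq mature form (24 and 25 bases), and its own chromosome 4 coordinates (88556517 to 88556540 for miR-31-5p) differ from those in GRCm38, so the file uses another build (not given in the sources used here). In GENCODE M21 (GRCm38) the hairpin lies within exon 3 of a long intergenic noncoding RNA, AL805899.1, on the same strand. On the same chromosome the interferon gene Ifne lies 30.4 kb away at lower coordinates. At higher coordinates lie Mtap, which encodes an enzyme of methionine salvage, at 226 kb, and the cell cycle inhibitor gene Cdkn2a at 364 kb.

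Libraries summed to 8618630 to 12167438 normalized read counts, of which microRNAs made up 73.0% to 82.0%. The genotype titles went with the measured miR-210: miR-210-3p held 10 and 32 in KO hypoxia and 23 and 14 in KO normoxia, against 36738 and 39011 in WT hypoxia and 4786 and 8676 in WT normoxia. Fibroblast and mesenchymal microRNAs (15 features, led by miR-21-5p, miR-22-3p and miR-125b-5p) made up 41.9% to 50.6% of each library. Most of this came from those leading members, with 27.5%, 9.12% and 3.68% of all values. Epithelia, where miR-31 is also abundant, are marked by the miR-200 family, miR-203 and miR-205. The 7 epithelial features summed to 100 to 290 per library, of which miR-205-5p held 53 to 230. The other 6 held at most 28 each, and the lowest was miR-429-3p at 0 to 7. The sums per library were 116 to 292 for muscle microRNAs (4 features), 841 to 3078 for haematopoietic ones (6 features, mostly miR-451) and 102 to 191 for endothelial ones (2 features), and no tested member of these lists passed in any comparison.

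The major arm of mmu-miR-31, miR-31-5p, was among the most abundant small RNAs of these fibroblasts in every library. It held 224792 and 247466 normalized read counts in KO hypoxia, 215129 and 200153 in KO normoxia, 197506 and 177297 in WT hypoxia, and 235521 and 215628 in WT normoxia. The highest value (KO hypoxia number 2) was 1.40 times the lowest (WT hypoxia number 2). The group means were 236129 ± 16033 in KO hypoxia, 207641 ± 10590 in KO normoxia, 187402 ± 14290 in WT hypoxia and 225574 ± 14067 in WT normoxia (SD, n = 2 each). Treating the values as reads, counting error was 0.201% to 0.237% of each value, so the differences between libraries are not limited by depth.

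By its mean over the 8 libraries miR-31-5p ranked 6 of 813 microRNAs, and the 5 above it were, in rising order, miR-24-3p, miR-143-3p, miR-125b-5p, miR-22-3p and miR-21-5p. Within single libraries its best rank was 4, in KO normoxia number 1, and its lowest was 11, in WT hypoxia number 2. It made up 2.33% and 2.22% of the KO hypoxia libraries, 2.50% and 1.94% of the KO normoxia libraries, 1.99% and 1.46% of the WT hypoxia libraries, and 2.40% and 1.88% of the WT normoxia libraries. For WT hypoxia number 2 the 95% exact binomial interval was 1.45% to 1.46%, covering counting error only. On this scale of shares number 1 stood above number 2 within every group.

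The microRNAs next to miR-31-5p in the order of group means were not separated from it in most groups. In KO hypoxia miR-143-3p, a mesenchymal microRNA, stood directly above it (294084 ± 139480) and miR-24-3p directly below (216423 ± 102871), and the libraries overlapped with those of miR-31-5p. In KO normoxia the same microRNAs were its neighbours, at 259748 ± 76245 and 170094 ± 33259. There only miR-24-3p, with 146576 and 193612, lay wholly below miR-31-5p. In WT hypoxia miR-19b-3p of the growth-promoting miR-17 cluster was directly above (187920 ± 18247) and miR-26a-5p directly below (167058 ± 65335), and both overlapped with it. In WT normoxia miR-19b-3p (240368 ± 16993) and miR-23b-3p (182416 ± 73420) were its neighbours and overlapped with it as well. Read counts of different microRNAs also depend on how well each ligates to adapters, so this is an order of counts.

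miR-31-3p was the minor arm, with miR-31-5p 9.29 to 15.2 times as abundant. It held 23929 and 20460 in KO hypoxia, 16178 and 15410 in KO normoxia, 15307 and 19082 in WT hypoxia, and 15540 and 18121 in WT normoxia. On the deposited scale both KO hypoxia libraries exceeded all 6 others (15307 to 19082), a pattern not counted over all features tested. As shares of the library this did not hold: miR-31-3p made up 0.248% and 0.184% in KO hypoxia, 0.188% and 0.149% in KO normoxia, 0.154% and 0.157% in WT hypoxia, and 0.158% and 0.158% in WT normoxia. The group means were 22195 ± 2453 in KO hypoxia, 15794 ± 543 in KO normoxia, 17195 ± 2669 in WT hypoxia and 16831 ± 1825 in WT normoxia (SD, n = 2 each). Its rank among microRNAs ran from 43 to 55 within a library and was 49 by the mean over the 8 libraries.

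**Figure D1:**
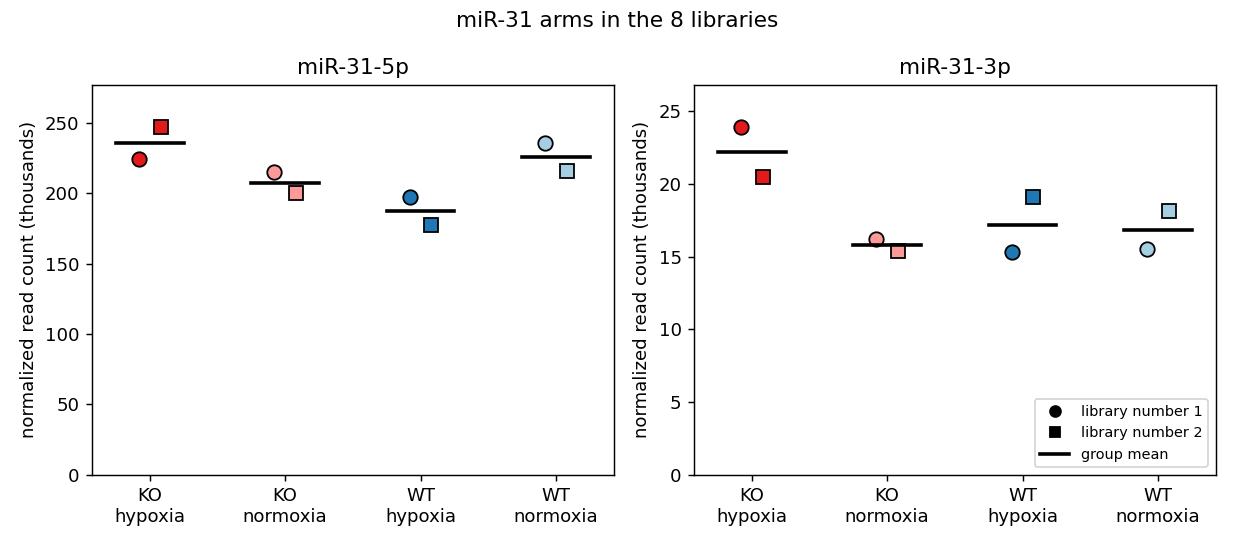
Normalized read counts of miR-31-5p (left) and miR-31-3p (right) in each of the 8 libraries, with circles for library number 1, squares for number 2 and bars for the mean of the 2 libraries of a group. miR-31-5p lies between 177297 and 247466 in all libraries, and miR-31-3p reaches 23929 and 20460 in KO hypoxia against at most 19082 elsewhere.

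On the deposited scale miR-31-5p was one of the steadiest microRNAs measured. The SD of its log2 values over the 8 libraries was 0.15, against a median of 0.50 over the 579 microRNA features tested, and 6 of those had a smaller SD. They were miR-93-3p, miR-29b-3p, miR-669b-5p, miR-669m-5p, miR-669e-3p and miR-21-5p. Among the 100 most abundant microRNAs 2 were steadier. miR-31-3p had an SD of 0.23, with 36 microRNAs below it. This standing depends on the scale: as shares of the library total the SDs were 0.25 and 0.24, with 64 and 60 microRNAs below them, and as shares of the microRNA total they were 0.29 and 0.29, with 113 and 107 below.

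**Figure D2:**
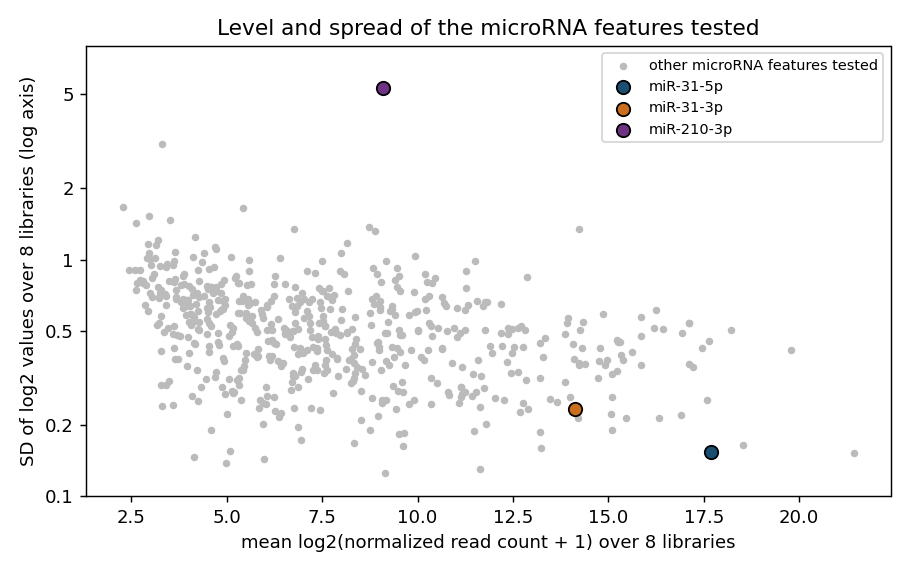
SD of the log2 values over 8 libraries (log axis) against the mean log2 value on the deposited scale, for the 579 microRNA features tested. miR-31-5p, at an SD of 0.15, lies at the lower right among abundant and steady microRNAs, miR-31-3p is at 0.23, and miR-210-3p, whose level separates the genotypes, lies at the top.

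Hypoxia in WT cells was compared with normoxia to ask whether low oxygen alters miR-31. miR-31-5p was lower in both WT hypoxia libraries (197506 and 177297) than in both WT normoxia libraries (235521 and 215628). The groups did not overlap, as was the case in this direction for 11.4% of all features tested. The fold change was 0.830 (95% interval 0.563 to 1.22) and the log2 change −0.27 (SE 0.25, limma adjusted p = 1.00), with −0.25 within number 1 and −0.28 within number 2. miR-31-3p overlapped between the groups and had a log2 change of 0.026 (SE 0.26, limma adjusted p = 1.00, 95% interval of the fold change 0.683 to 1.52), a sign that turned under other scalings (−0.026 on the library total, −0.035 on the microRNA total, −0.051 after quantile normalization). Of the 2 arms 0 passed by limma, adjusted or at an unadjusted p under 0.05, where 0% of all features tested passed adjusted and 1.30% unadjusted. In the same libraries miR-210-3p held 36738 and 39011 in WT hypoxia against 4786 and 8676 in WT normoxia, so that miR-31-5p was 5.38 and 4.54 times as abundant as miR-210-3p in WT hypoxia, against 49.2 and 24.9 times in WT normoxia.

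In KO cells, in which miR-210-3p held at most 32, both arms had higher values in hypoxia on the deposited scale. miR-31-5p held 224792 and 247466 in KO hypoxia against 215129 and 200153 in KO normoxia, and miR-31-3p held 23929 and 20460 against 16178 and 15410. Neither arm overlapped between the groups, a pattern shown in this direction by 15.8% of all features tested. The fold change was 1.14 for miR-31-5p (95% interval 0.771 to 1.68), a log2 change of 0.18 (SE 0.25, limma adjusted p = 0.975), and within numbers the log2 change was 0.063 and 0.31. It was 1.40 for miR-31-3p (95% interval 0.939 to 2.09), a log2 change of 0.49 (SE 0.26, limma adjusted p = 0.804), and within numbers 0.56 and 0.41. Of the 2 arms 0 passed by limma, adjusted or at an unadjusted p under 0.05, where 0% of all features passed adjusted and 5.39% unadjusted. For miR-31-5p the log2 change was 0.040 on the microRNA total, 0.049 on the library total, 0.12 without KO hypoxia number 2, and of the opposite sign after quantile normalization (−0.37). For miR-31-3p it was 0.15 after quantile normalization. As shares of the library both arms overlapped in KO (2.33% and 2.22% in KO hypoxia against 2.50% and 1.94% in KO normoxia for miR-31-5p, and 0.248% and 0.184% against 0.188% and 0.149% for miR-31-3p). The miR-31-5p shares overlapped in WT as well (1.99% and 1.46% in WT hypoxia against 2.40% and 1.88% in WT normoxia). The miR-31-3p shares in WT did not, with 0.154% and 0.157% in WT hypoxia below 0.158% and 0.158% in WT normoxia. How many of all features do so on that scale was not counted, and as deposited 11.4% did in this direction. The 95% exact binomial intervals of these miR-31-3p shares overlapped between the groups. That overlap does not place the difference within counting error.

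To set the oxygen response of KO cells against that of WT cells, the WT log2 change was subtracted from the KO one. This interaction was 0.45 on the log2 scale for miR-31-5p (SE 0.35, 95% interval −0.34 to 1.25, limma adjusted p = 1.00) and 0.46 for miR-31-3p (SE 0.36, 95% interval −0.36 to 1.28, limma adjusted p = 1.00). Neither passed, and 0% of all features tested passed in this contrast (2.40% at an unadjusted p under 0.05, and neither arm). The interval for miR-31-5p includes no difference as well as a KO change up to 2.37-fold above the WT change. Its sign turned after quantile normalization (−0.14). The miR-31-3p value was 0.20 after quantile normalization and 0.30 without WT hypoxia number 1. On the deposited scale, values lower in WT hypoxia and higher in KO hypoxia, without overlap in either genotype, were shown by miR-31-5p and by 1.49% of all features tested.

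Genotypes were compared to ask whether miR-31 differs where miR-210 is nearly absent. In normoxia miR-31-5p held 215129 and 200153 in KO against 235521 and 215628 in WT, without overlap. This was the case in this direction for 20.0% of all features. Its log2 difference was −0.12 (SE 0.25, 95% interval of the fold change 0.624 to 1.36, limma adjusted p = 0.884). miR-31-3p held 16178 and 15410 in KO against 15540 and 18121 in WT, with overlap and a log2 difference of −0.088 (SE 0.26, 95% interval of the fold change 0.631 to 1.40, limma adjusted p = 0.914). As shares of the library the miR-31-5p values overlapped (2.50% and 1.94% in KO normoxia against 2.40% and 1.88% in WT normoxia). With 1 library left out the log2 difference ran from −0.18 (without WT normoxia number 2) to −0.055 (without WT normoxia number 1) for miR-31-5p and from −0.20 (without WT normoxia number 1) to 0.023 (without WT normoxia number 2) for miR-31-3p. On the library total both signs turned (0.049 and 0.080), as they did on the microRNA total (0.12 and 0.15) and after quantile normalization (0.37 and 0.19). Of all features tested 0.0649% passed adjusted (miR-210-3p alone) and 13.4% unadjusted, and neither arm was among them.

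In hypoxia both arms had higher values in KO than in WT. miR-31-5p held 224792 and 247466 in KO hypoxia against 197506 and 177297 in WT hypoxia, and miR-31-3p held 23929 and 20460 against 15307 and 19082. Neither overlapped, and 19.2% of all features showed the same in this direction. The fold difference was 1.26 for miR-31-5p (95% interval 0.855 to 1.86, log2 difference 0.33, SE 0.25, limma adjusted p = 0.912) and 1.29 for miR-31-3p (95% interval 0.868 to 1.93, log2 difference 0.37, SE 0.26, limma adjusted p = 0.902). Within number 1 and number 2 the log2 differences were 0.19 and 0.48 for miR-31-5p and 0.64 and 0.10 for miR-31-3p. Without WT hypoxia number 1 the miR-31-3p difference was 0.21. As shares of the library neither arm overlapped between the groups, and how many of all features do so on that scale was not counted. The median difference of all features was 0.039 on the library total, against −0.044 as deposited. Both miR-210 arms passed in this comparison (0.130% of all features, with 9.03% unadjusted), and neither arm of miR-31 did. Averaged over the 2 oxygen levels the KO minus WT difference was 0.11 for miR-31-5p (SE 0.18, limma adjusted p = 0.826) and 0.14 for miR-31-3p (SE 0.18, limma adjusted p = 0.765), against 0.130% of all features passing adjusted and 17.8% unadjusted. These mean differences depended on the scaling: they were 0.30 and 0.34 on the microRNA total, 0.23 and 0.27 on the library total, and 0.30 and 0.29 after quantile normalization. With 1 library left out they ran from 0.068 (without WT hypoxia number 2) to 0.15 for miR-31-5p, and from 0.063 (without WT hypoxia number 1) to 0.22 (without WT hypoxia number 2) for miR-31-3p, which was 0.086 without KO hypoxia number 1 and 0.087 without WT normoxia number 1. The 4 pairwise comparisons share libraries, so their values for miR-31 are not independent of each other.

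**Figure D3:**
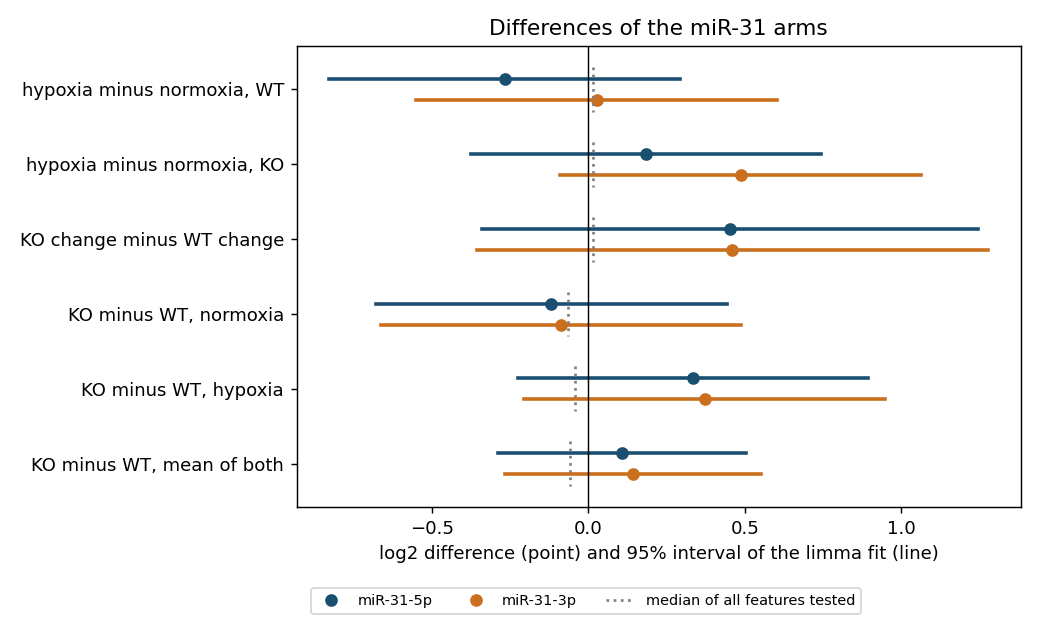
Log2 differences of miR-31-5p and miR-31-3p in 6 comparisons, with points for the estimate, lines for the 95% interval of the limma fit and dotted marks for the median of all 1540 features tested. All intervals include 0, and the estimates run from −0.27 (miR-31-5p, WT hypoxia minus WT normoxia) to 0.49 (miR-31-3p, KO hypoxia minus KO normoxia).

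The residual SD of miR-31-5p around the 4 group means was 0.09 on the log2 scale, smaller than in all but 17 of the 1540 features, and that of miR-31-3p was 0.16. The fit, which borrows the spread of features at a similar level, used 0.25 and 0.26 for its intervals. With 2 libraries against 2, an exact permutation test cannot give a p below 0.333. Fewer expressing cells and less miR-31 per cell cannot be told apart in these bulk libraries.

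The balance between the arms was examined next, since it does not depend on the scaling of a library. miR-31-3p made up 9.62% and 7.64% of both arms in KO hypoxia, 6.99% and 7.15% in KO normoxia, 7.19% and 9.72% in WT hypoxia, and 6.19% and 7.75% in WT normoxia. The highest shares were in KO hypoxia number 1 (95% exact binomial interval 9.51% to 9.74%) and WT hypoxia number 2 (9.59% to 9.85%), and the lowest in WT normoxia number 1 (6.10% to 6.28%). Between library numbers of the same group the share differed by more than counting error in KO hypoxia, WT hypoxia and WT normoxia. The mean log2 ratio of miR-31-5p to miR-31-3p was 3.43 ± 0.25 over the hypoxia libraries and 3.73 ± 0.14 over the normoxia libraries (SD, n = 4 each), a difference of −0.30 (exact two-sided permutation test, p = 0.114, adjusted p = 0.229 over 2 tests, where 0.0286 is the smallest p this design allows). Within a number the hypoxia ratio had the lower value in each case, with differences of −0.50 and −0.10 in KO and −0.23 and −0.36 in WT. How many other hairpins do so was not counted. Between genotypes the ratio was 3.57 ± 0.23 in KO and 3.60 ± 0.29 in WT (SD, n = 4 each, difference −0.035, exact two-sided permutation test, p = 0.943, adjusted p = 0.943).

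**Figure D4:**
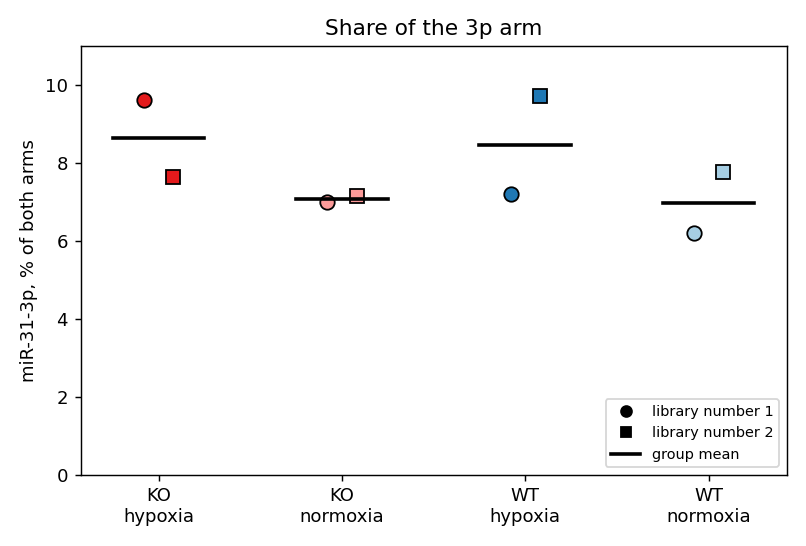
miR-31-3p as a percentage of both miR-31 arms in each library, with circles for library number 1, squares for number 2 and bars for the mean of a group. The shares run from 6.19% to 9.72%, and the hypoxia libraries (7.19% to 9.72%) overlap with the normoxia libraries (6.19% to 7.75%).

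Arm balance was tighter for miR-31 than for most of the hairpins with both arms tested, without any limit on the level of the minor arm. That arm averaged 18003 for miR-31 but 13.8 for miR-206 (SD of the log2 ratio 1.32), where counting error adds to the spread. The standing among hairpins with a similarly abundant minor arm was not tested. Of 178 hairpins with both arms tested, 21 had a smaller SD of the log2 ratio of the major to the minor arm over the 8 libraries than miR-31 (0.25, median 0.45). The median hypoxia minus normoxia difference of this ratio was 0.05, and 29 hairpins had a more negative one than miR-31. The arms of miR-31 themselves followed each other loosely across libraries (r = 0.25, rho = 0.43 over 8 libraries, which share their scaling factor).

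The microRNAs whose log2 values followed miR-31-5p most closely over the 8 libraries were less abundant ones. The closest of 578 was miR-342-5p, an intronic microRNA of the gene Evl, with 144 and 139 in KO hypoxia, 107 and 108 in KO normoxia, 101 and 101 in WT hypoxia, and 121 and 120 in WT normoxia (r = 0.81, rho = 0.90). Its libraries stood highest in KO hypoxia and lowest in WT hypoxia, the same order of group means as for miR-31-5p. Next came miR-294-3p (r = 0.79), miR-141-3p (0.79), miR-449c-5p (0.75), miR-3074-5p (0.74) and miR-218-1-3p (0.73). Of these miR-449c-5p held 592 to 886 and the other 4 averaged 6.62 to 25.1 normalized read counts, where counting error alone moves the values. The most opposite were miR-130a-3p (r = −0.82, mean 800), miR-410-5p (−0.79, mean 9.5) and miR-3107-5p (−0.77, mean 65.2). These are descriptions over 8 libraries that share their scaling, chosen from 578. The other arm, miR-31-3p, ranked 123 by this measure.

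No other microRNA lies close to Mir31. By the file's coordinates the nearest of 28 other microRNA features on chromosome 4 were the arms of miR-491, 789 kb away. miR-491-5p held 32 and 45 in KO hypoxia, 23 and 58 in KO normoxia, 20 and 33 in WT hypoxia, and 34 and 50 in WT normoxia. It did not pass in any pairwise comparison (log2 change with hypoxia 0.05, SE 0.51, in KO and −0.66, SE 0.51, in WT). miR-491-3p held 0 to 6 and was not tested. The next feature by distance, miR-872-5p at 5775 kb, held 2184 and 1848 in KO hypoxia, 1901 and 1348 in KO normoxia, 1567 and 2086 in WT hypoxia, and 1362 and 2050 in WT normoxia, with overlapping values and no pass in any pairwise comparison.

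Other microRNAs described as acting on the HIF pathway, or induced by it, gave a point of comparison. Of 19 listed features 18 were tested. In KO against WT normoxia 1 passed lower (miR-210-3p) and 0 higher, with a median log2 difference of −0.82 against −0.06 for all features, compared with −0.12 and −0.088 for the miR-31 arms. A negative sign was shown by 18 of 18, against 54.4% of all features. An unadjusted p under 0.05 was found for 5 of 18, against 13.4% of all features. Both miR-210 arms, nearly absent in KO, counted among the 18 and among the 5. Arms of the same hairpin or cluster are not independent of each other. On the microRNA total the list's median was −0.58 with 14 of 18 negative (all features 0.17, 33.4% negative), on the library total −0.65 with 15 (0.099, 39.2%), and after quantile normalization −0.73 with 16 (−0.041, 53.3%). In KO against WT hypoxia 2 passed lower (both miR-210 arms) and 0 higher, with a median of −0.035 beside −0.044 for all features. That median was positive on the microRNA total (0.12, all features 0.11) and the library total (0.049, all features 0.039). With hypoxia 0 passed in KO (median 0.20) and 0 in WT (median −0.14) by limma. An unadjusted p under 0.05 was found for 2 of 18 in KO, against 5.39% of all features. It was found for 2 of 18 in WT, against 1.30%, and those 2 were the miR-210 arms. The KO median was 0.054 on the microRNA total and 0.062 on the library total. Its most abundant members were miR-199a-3p, miR-199a-5p and miR-20a-5p. miR-20a-5p, a member of the miR-17 cluster described as targeting HIF1A in human cells, averaged 36466 in KO hypoxia, 18256 in KO normoxia, 36886 in WT hypoxia and 35161 in WT normoxia and did not pass (KO minus WT in normoxia −0.98, SE 0.40, limma adjusted p = 0.329).

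miR-31 also responds to NF-kB in human keratinocytes, so microRNAs known to respond to this inflammatory transcription factor were set beside it. The lists share miR-155. Of 7 listed features 6 were tested and 0 passed in any of the 6 comparisons by limma, with 0 at an unadjusted p under 0.05. Of all features tested 0% to 0.130% passed adjusted and 1.30% to 17.8% unadjusted, depending on the comparison. A count of 0 of 6 therefore does not set this list apart from all features. The median log2 change of the 6 with hypoxia was 0.17 in KO and 0.05 in WT, against 0.016 in each for all features. Their median KO minus WT difference was −0.18 in normoxia and 0.13 in hypoxia, against −0.064 and −0.044 for all features. The WT hypoxia median turned to −0.014 and the normoxia genotype median to 0.057 on the microRNA total, against −0.046 and 0.17 for all features. On the library total the list medians were −0.0049 and −0.012, against −0.037 and 0.099 for all features. The median of all features thus shifted in the same direction on these scales. miR-155-5p, a regulator of inflammation, averaged 5774 in KO hypoxia, 5067 in KO normoxia, 5293 in WT hypoxia and 6157 in WT normoxia. miR-146b-5p, which restrains NF-kB signalling, ranged from 6668 to 52077 over the 8 libraries. The SD of its log2 values was 1.34, against 0.15 for miR-31-5p. miR-21-5p, the most abundant feature, had an SD over the 8 libraries of 0.15, close to that of miR-31-5p.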

How the data were processed

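Small RNA was sequenced from 8 libraries, prepared from miRNeasy RNA with NEBNext reagents for SOLiD, per the labels' protocols. The deposited values are a score, the authors' normalized read count per feature, in whole numbers. Normalization method, trimming, aligner, genome build and handling of multiply matching reads: not given in the sources used here. Values were used as deposited. Features with at least 10 in at least 2 libraries were tested with limma 3.58.1 (R 4.3.3, intensity trend) on log2(value + 1), with 4 group means, 4 residual and 5.64 prior degrees of freedom, and Benjamini-Hochberg adjustment over 1540 features (threshold 0.05). Fold changes are on the log2(value + 1) scale. Shares have 95% exact binomial intervals, which treat values as reads, and arm ratios were tested by exact permutation. The fit was run on simulated data with planted changes larger than the miR-31 differences found here, so that run says nothing about changes of their size. Seeds were compared on RefSeq mature forms, and also on the listed sequences, which carry 1 more base at either end; neither gave another feature with the seed of an arm.

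Named features were both arms, the 6 most and 3 least correlated microRNAs, the nearest microRNAs on the chromosome, seed sharers, miR-210, neighbours in the order of levels and up to 3 abundant members of each list. The 6 steadier microRNAs were named after their values were seen. The members and lists were chosen with earlier results of these data known. Replicate numbers were not treated as pairs in the main fit or the permutation tests, and a fit with the number as a block was run beside them. Differences within a number are descriptions, since the labels do not say that a number marks a shared culture.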

Additional observations from a re-analysis of the deposited data

Results flagged for a closer look

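miR-31-5p drew attention because every KO hypoxia library was above every KO normoxia library while every WT hypoxia library was below every WT normoxia library. The KO change minus the WT change was 0.45 on the log2 scale (SE 0.35), and limma did not call it (adjusted p = 1.00). The same opposite pattern without overlap was shown by 23 of 1540 features (1.49%). As shares of the library total the miR-31-5p values of hypoxia and normoxia overlapped in both genotypes.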

How the results depend on the processing

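Neither arm of miR-31 was called in any of 236 fits across comparisons and settings (lowest limma adjusted p = 0.400). Several signs turned. After quantile normalization the log2 values were −0.051 for miR-31-3p with hypoxia in WT, −0.37 for miR-31-5p with hypoxia in KO, 0.37 and 0.19 for miR-31-5p and miR-31-3p in KO against WT normoxia, and −0.14 for the miR-31-5p interaction. On the microRNA total they were −0.035 for miR-31-3p with hypoxia in WT and 0.12 and 0.15 for the arms in KO against WT normoxia, and on the library total, a scaling chosen after seeing the data, −0.026, 0.049 and 0.080. These scalings shift the median of all features too: in KO against WT normoxia it is −0.064 as deposited, 0.17 on the microRNA total and 0.099 on the library total, and with hypoxia in KO to −0.13 and −0.12. With each library left out in turn (a lone library is assumed to vary like the others), miR-31-3p ran from −0.13 to 0.19 with hypoxia in WT and from −0.20 to 0.023 in KO against WT normoxia, and the arm ratio in KO against WT from −0.16 to 0.076.

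Counts of all features called moved more. With hypoxia in WT the count of 0 became 1 with a pseudocount of 8 or a mean of at least 50, and 8 under the replicate block. In KO against WT normoxia the count of 1 became 2 without the intensity trend and ran from 1 to 2 with a library left out. For the mean genotype difference the count of 2 became 85 on the microRNA total, 73 on the library total and 91 with the block, and ran from 2 to 29 with a library left out (29 without WT hypoxia number 2, 4 without KO hypoxia number 2). The cause was not tested. With the replicate number as a block the miR-31-5p interaction had adjusted p = 0.884 and miR-31-3p with hypoxia in KO adjusted p = 0.487, so no arm was called. Deviations by number correlated between groups with r from 0.15 to 0.55, a hint from the data, and the labels do not say that a number marks a shared culture.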
